A study of Mus musculus with 14 samples.

Results

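The genes described here are 39 histone methyltransferases, demethylases and partner subunits, taken by gene name from a deposited count table of 22048 mouse genes. All 39 were found in the table and all passed the filter on low counts, which left 12343 genes for testing. They comprise 7 genes counted as H3K4 writers, 3 H3K36 writers, 6 H3K9 writers, 5 subunits of Polycomb repressive complex 2 (PRC2), 5 arginine methyltransferases and SMYD enzymes, and 13 demethylases. The fewest reads, 4471 over all libraries, fell on Suv39h2.

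Histone lysine and arginine residues are methylated by writer enzymes and most lysine marks are removed by demethylases, so that the mark on a gene can be set and reset without a change in its DNA. Methylation of H3K4 and H3K36 is found at active enhancers, promoters and gene bodies, whereas H3K9 methylation and the H3K27 methylation laid down by PRC2 accompany silent chromatin. In CD4+ T cells, EZH2, SUV39H1 and the H3K27 demethylase KDM6B are known for their part in T helper lineage stability and in the choice of the Th1 fate, in which cells make interferon-gamma.

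RNA was sequenced from CD4+ T cells taken from the spleen and the peripheral lymph nodes of C57BL/6 mice that carry a yellow fluorescent protein (YFP) reporter of interferon-gamma, in 14 libraries. Naive cells (CD4+ CD44- CD62L+, n = 3) were sorted directly from tissue. The cultures began from CD4+ T cells that had been enriched but not sorted for a naive phenotype, and ran for 4 days toward Th1 on anti-CD3 and anti-CD28 bound to the plate at 1 µg/ml, with IL-2 and IL-12 (10 ng/ml each) and anti-IL4 (10 µg/ml). Each culture contained 1 µM of SGC0946, an inhibitor of the H3K79 methyltransferase DOT1L, or 1 µM of SGC0649, its inactive control compound, and was sorted by the reporter at the end. Reporter-negative cells (YFPneg) gave 2 libraries with SGC0649 and 3 with SGC0946, and reporter-positive cells (YFPpos) gave 3 with each compound. Naive libraries are numbered 1 to 3, SGC0649 libraries 61 to 63 and SGC0946 libraries 91 to 93. Every cultured group carried a compound, a vehicle-treated culture was not analysed here, and the cultured cells differ from the naive cells in starting population, activation, cytokines and time, which cannot be told apart. The design calls the libraries biological replicates without saying that they came from separate animals. The p-values therefore set each difference against the spread between these libraries, estimated over all 5 groups together.

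Library totals ranged from 14486577 to 31614057 counts. Unmapped reads were 7.40% to 8.66% in naive cells, 3.14% to 4.62% in both YFPneg groups and 6.44% to 8.35% in YFPpos SGC0649 cells. In YFPpos SGC0946 cells they were 7.58% and 8.12% in libraries 91 and 93 but 3.61% in library 92, which stood apart. Summed CD4 T cell markers reached 2445 to 4687 counts per 1000000 (CPM) in every library, while B cell markers stayed at or below 2.50, myeloid markers at or below 13.4, NK cell markers at or below 0.907 and CD8 markers at or below 19.7. Interferon-gamma RNA (Ifng) averaged 737 CPM ± 169 (SD, n = 3) in YFPpos and 33.8 ± 11.8 (SD, n = 2) in YFPneg SGC0649 cells, in the direction of the sort. With SGC0946 it averaged 645 CPM ± 97.3 in YFPpos and 66.8 ± 42.5 in YFPneg cells (SD, n = 3 each). Naive cells averaged 0.0623 CPM, so YFPneg cells held some Ifng RNA with either compound. By 50-base stretches matched on either strand, 10.2% to 24.7% of the sequence of Smyd2, Kdm3b, Carm1, Kdm2b, Suv39h1 and Setdb1 also occurs in transcripts of other annotated genes. The counts are labelled as strand-specific, and on the same strand at most 1.14% of their exon bases overlap another gene, in Kdm2b. How far the shared sequence touches those counts is therefore not known. Dot1l RNA, the target of SGC0946, averaged 167 CPM ± 5.92 (SD, n = 3) in naive cells.

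Promoters of 4 members whose RNA differed between naive and cultured cells are shown, because 3 of them hold a match to an E2F-type motif and the fourth, the paralog Ezh1, does not. E2F factors are regulators of cell-cycle genes. Each sequence is the RefSeq promoter of 250 bases before to 50 after a gene start on GRCm38.p6, read on the strand of the gene, with any match in capitals.
Ezh2 (chr6:47594981-47595280, minus strand): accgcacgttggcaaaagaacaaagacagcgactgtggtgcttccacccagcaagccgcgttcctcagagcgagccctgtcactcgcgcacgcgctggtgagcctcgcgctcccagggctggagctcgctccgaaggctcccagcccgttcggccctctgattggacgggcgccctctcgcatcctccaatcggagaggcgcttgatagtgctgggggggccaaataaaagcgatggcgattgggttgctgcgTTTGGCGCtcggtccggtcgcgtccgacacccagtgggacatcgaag
Suz12 (chr11:79992856-79993155, plus strand): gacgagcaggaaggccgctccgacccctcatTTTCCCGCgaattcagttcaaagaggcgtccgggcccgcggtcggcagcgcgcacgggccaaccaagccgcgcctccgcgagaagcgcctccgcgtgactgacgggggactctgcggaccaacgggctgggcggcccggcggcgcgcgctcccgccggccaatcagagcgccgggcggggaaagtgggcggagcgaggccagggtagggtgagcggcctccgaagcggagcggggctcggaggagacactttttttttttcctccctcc
Suv39h1 (chrX:8074312-8074611, minus strand): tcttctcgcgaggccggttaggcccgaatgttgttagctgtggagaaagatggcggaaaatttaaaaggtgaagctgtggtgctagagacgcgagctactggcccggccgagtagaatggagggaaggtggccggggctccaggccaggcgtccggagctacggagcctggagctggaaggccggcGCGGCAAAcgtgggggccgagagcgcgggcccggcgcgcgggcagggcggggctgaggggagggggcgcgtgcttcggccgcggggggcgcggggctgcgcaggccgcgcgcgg
Ezh1 (chr11:101226414-101226713, minus strand): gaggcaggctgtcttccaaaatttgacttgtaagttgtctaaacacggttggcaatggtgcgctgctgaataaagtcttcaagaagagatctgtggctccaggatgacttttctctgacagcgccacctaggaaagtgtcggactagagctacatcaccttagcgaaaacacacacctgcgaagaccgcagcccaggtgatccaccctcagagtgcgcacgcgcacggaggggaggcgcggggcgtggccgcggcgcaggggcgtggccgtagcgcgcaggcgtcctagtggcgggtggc

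The motifs searched on both strands were TTTCCCGC, TTTGGCGC, TTTCGCGC and TTTGCCGC, matches of which may overlap, and a promoter was counted once. In the Suv39h1 window the match lies on the opposite strand, so the capitals spell the reverse complement of TTTGCCGC. A promoter was found for 27 of the 39 members, and 3 of these 27 genes (11.1%) held a match. Beside them, 704 of the 27025 genes with a RefSeq promoter (2.61%) held one. That set was not limited to the genes tested here. Both promoters listed for Suv39h1 were searched, and the other held none. Ezh2, Suz12 and Suv39h1 were among the 11 members higher in YFPpos SGC0649 than in naive cells, of which 10 had a promoter. The 12 promoter-bearing members that were lower and the 5 not called held no match. At a share of 2.61% of all genes with a RefSeq promoter, groups this small would mostly hold no match, so this does not set them apart. Whether E2F factors had a part was not tested. A match describes letters, not bound sites.

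The first question was how the enzymes in resting naive cells differ from those of cells that had gone through Th1 culture and made the cytokine. Between naive and YFPpos SGC0649 cells, RNA of most writers of active marks fell, while RNA of 4 of 5 PRC2 genes, of the SUV39H pair and of 4 of 5 arginine and SMYD enzymes rose. Of the 6 H3K9 writers 3 fell, as did 9 of 13 demethylases. With an adjusted p under 0.05 (edgeR quasi-likelihood test, adjusted over all 12343 genes), 11 members were higher, against 42.6% of all genes tested, and 23 were lower, against 37.3%. By at least 2-fold, 9 members were higher, against 25.4% of all genes, and 10 were lower, against 18.4%. The median log2 fold change was -0.42 over the members and 0.09 over all genes. In bulk libraries such as these, fewer cells of a type and less RNA per cell cannot be told apart.

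Of the H3K4 writers, 6 of 7 fell and their summed level went from 4000 CPM ± 231 (SD, n = 3) in naive to 1080 CPM ± 21.6 (SD, n = 3) in YFPpos SGC0649 cells. Kmt2d (ENSMUSG00000048154, chr15:98831669-98871204) and Kmt2c (ENSMUSG00000038056, chr5:25271798-25498783) encode large enzymes that place H3K4 monomethylation at enhancers. Kmt2d was at 1548, 1755 and 1622 CPM in naive libraries, at 533 and 631 in YFPneg SGC0649, at 284, 285 and 287 in YFPpos SGC0649, at 526, 554 and 633 in YFPneg SGC0946 and at 267, 265 and 256 in YFPpos SGC0946. Kmt2c was at 946, 1054 and 921 CPM in naive libraries, at 252 and 269 in YFPneg SGC0649, at 131, 126 and 124 in YFPpos SGC0649, at 290, 319 and 408 in YFPneg SGC0946 and at 135, 133 and 120 in YFPpos SGC0946. For both genes the naive libraries were highest, the YFPneg libraries of either compound lay in between and the YFPpos libraries were lowest, with no overlap between these levels. The log2 fold change from naive to YFPpos SGC0649 cells was -2.94 ± 0.10 (SE, adjusted p = 2.74e-14) for Kmt2c and -2.53 ± 0.08 (SE, adjusted p = 4.75e-15) for Kmt2d.

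The other H3K4 writers fell less or not at all. Setd1b, a catalytic subunit of a COMPASS complex that makes H3K4 trimethylation, fell from 249 CPM ± 15.3 to 75.6 ± 4.24 (SD, n = 3 each), a log2 fold change of -1.72 ± 0.09 (SE, adjusted p = 8.36e-12). Its paralog Setd1a was at 54.1 CPM ± 0.696 in naive and 55.3 ± 4.05 in YFPpos SGC0649 cells, with a 95% interval of the log2 fold change from -0.14 to 0.21. Setd1a shares 51.8% of its exon bases on the same strand with another annotated gene (GENCODE M21), so its count is uncertain. Kmt2e, a SET domain gene whose histone activity is disputed, fell from 386 to 147 CPM (log2 fold change -1.39 ± 0.07, SE). Kmt2b, which acts at CpG-rich promoters, fell from 401 to 233 CPM (-0.78 ± 0.07). Setd7, which monomethylates H3K4 and other proteins, fell from 295 CPM ± 15.3 to 156 ± 4.09, a log2 fold change of -0.92 ± 0.06 (SE, adjusted p = 1.59e-10). Within each library, the per-kilobase level of Setd1a relative to Setd1b was 0.387 ± 0.0262 in naive and 1.30 ± 0.136 in YFPpos SGC0649 cells (SD, n = 3 each).

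All 3 H3K36 writers fell. Ash1l, an H3K36 methyltransferase of the Trithorax group, was at 304, 321 and 304 CPM in naive libraries and at 82.2, 90.9 and 92.5 in YFPpos SGC0649 libraries. The groups were far apart, with a log2 fold change of -1.81 ± 0.08 (SE, adjusted p = 1.01e-12). Nsd1, which makes H3K36 dimethylation, fell from 558 CPM ± 16.4 to 275 ± 2.30 (log2 fold change -1.02 ± 0.05, SE). Setd2, the main H3K36 trimethylase, fell from 285 CPM ± 9.76 to 172 ± 3.49 (-0.73 ± 0.06).

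The H3K9 writers split, with 2 of 6 higher and 3 lower. Suv39h2 (ENSMUSG00000026646, chr2:3455815-3475031) and Suv39h1 (ENSMUSG00000039231, chrX:8061171-8074760) encode a pair of enzymes that trimethylate H3K9 in heterochromatin. Suv39h2 was at 2.22, 1.87 and 2.27 CPM in naive libraries, at 20.5 and 16.1 in YFPneg SGC0649, at 20.1, 23.0 and 21.6 in YFPpos SGC0649, at 10.8, 10.9 and 12.1 in YFPneg SGC0946 and at 20.4, 20.6 and 20.8 in YFPpos SGC0946. Suv39h1 was at 58.4, 52.4 and 50.01 CPM in naive libraries, at 112 and 116 in YFPneg SGC0649, at 150, 154 and 156 in YFPpos SGC0649, at 93.2, 91.5 and 79.4 in YFPneg SGC0946 and at 137, 141 and 144 in YFPpos SGC0946. Naive libraries were lowest for both genes, and YFPneg SGC0946 libraries were the lowest of the cultured ones. From naive to YFPpos SGC0649 cells the log2 fold change was 3.34 ± 0.15 (SE, adjusted p = 7.23e-13) for Suv39h2 and 1.52 ± 0.07 (SE, adjusted p = 1.61e-12) for Suv39h1.

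The Suv39h1 level per kilobase was 21.3 ± 2.58 times that of Suv39h2 in naive and 5.98 ± 0.313 times in YFPpos SGC0649 cells (SD, n = 3 each). Setdb2, an H3K9 methyltransferase of the SETDB family, fell from 46.4 CPM ± 2.15 to 24.9 ± 2.94 (log2 fold change -0.90 ± 0.10, SE). The dimethylases Ehmt1 and Ehmt2, which act as one complex, fell slightly, from 97.6 to 86.8 CPM (-0.17 ± 0.06) and from 186 to 155 CPM (-0.26 ± 0.07). Setdb1, the trimethylase recruited by KRAB zinc finger proteins, was at 124 CPM ± 3.81 in naive and 135 ± 5.49 in YFPpos SGC0649 cells, and its interval ran from -0.01 to 0.26.

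Within PRC2, 4 of 5 genes rose and Ezh1 fell. Ezh2 (ENSMUSG00000029687, chr6:47530139-47595341) and Ezh1 (ENSMUSG00000006920, chr11:101191115-101226463) encode the alternative catalytic subunits, EZH2 being the form typical of dividing cells. Ezh2 was at 40.8, 43.2 and 43.6 CPM in naive libraries, at 252 and 221 in YFPneg SGC0649, at 316, 309 and 322 in YFPpos SGC0649, at 215, 185 and 204 in YFPneg SGC0946 and at 288, 259 and 277 in YFPpos SGC0946. Ezh1 was at 130, 131 and 126 CPM in naive libraries, at 63.1 and 65.6 in YFPneg SGC0649, at 48.7, 43.5 and 37.9 in YFPpos SGC0649, at 60.6, 80.9 and 79.1 in YFPneg SGC0946 and at 47.7, 48.6 and 46.6 in YFPpos SGC0946. The order of the groups was opposite for the paralogs, with naive and YFPpos cells at the ends and YFPneg cells between them. From naive to YFPpos SGC0649 cells the log2 fold change was 2.89 ± 0.07 (SE, adjusted p = 4.53e-16) for Ezh2 and -1.57 ± 0.10 (SE, adjusted p = 1.24e-10) for Ezh1.

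Per kilobase and within each library, the ratio of Ezh2 to Ezh1 was 0.367 ± 0.0187 in naive cells (SD, n = 3) and 8.21 ± 1.16 in YFPpos SGC0649 cells (SD, n = 3). It was 4.09 ± 0.489 in YFPneg SGC0649 (SD, n = 2), 3.12 ± 0.743 in YFPneg SGC0946 and 6.43 ± 0.430 in YFPpos SGC0946 cells (SD, n = 3 each). Ezh1 was thus the more abundant form in each naive library and Ezh2 in each cultured library. The core subunit Eed, which binds trimethylated H3K27, rose from 105 CPM ± 4.88 to 219 ± 12.5 (log2 fold change 1.06 ± 0.06, SE). Suz12, the other core subunit, rose from 217 CPM ± 11.98 to 320 ± 21.8 (0.56 ± 0.07). Jarid2, an accessory subunit that helps PRC2 to reach its targets, rose from 117 CPM ± 0.501 to 145 ± 10.1 (0.31 ± 0.06).

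Of the arginine methyltransferases and SMYD enzymes, 4 of 5 rose, and their summed level went from 254 CPM ± 7.34 to 652 ± 68.5 (SD, n = 3 each). Smyd2, which methylates H3K36 and several non-histone proteins, was at 10.55, 14.1 and 11.5 CPM in naive libraries and at 69.2, 78.7 and 91.2 in YFPpos SGC0649 libraries, a log2 fold change of 2.73 ± 0.13 (SE, adjusted p = 2.36e-12). Prmt1, the main maker of asymmetric dimethylarginine, was at 89.4, 92.8 and 87.3 CPM in naive and at 220, 239 and 291 in YFPpos SGC0649 libraries (log2 fold change 1.48 ± 0.11, SE, adjusted p = 6.02e-10). In both genes YFPpos SGC0649 library 63 was the highest of all 14 libraries. Carm1, which methylates H3R17, rose from 44.5 CPM ± 2.34 to 109 ± 11.9 (1.29 ± 0.09), and Prmt5, the main symmetric dimethylase, from 85.6 CPM ± 3.35 to 197 ± 7.76 (1.20 ± 0.07). Smyd3 was the exception and fell from 22.5 CPM ± 0.839 to 16.8 ± 1.64 (-0.42 ± 0.10).

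Of the 13 demethylases, 9 fell and 1 rose. Kdm7a (ENSMUSG00000042599, chr6:39136623-39206789), which removes H3K9 and H3K27 dimethylation, was at 275, 285 and 265 CPM in naive libraries, at 106 and 89.4 in YFPneg SGC0649, at 39.2, 40.1 and 40.3 in YFPpos SGC0649, at 124, 124 and 157 in YFPneg SGC0946 and at 48.9, 49.0 and 43.1 in YFPpos SGC0946. As for Kmt2c, naive, YFPneg and YFPpos libraries did not overlap, and its log2 fold change from naive to YFPpos SGC0649 cells was -2.79 ± 0.09 (SE, adjusted p = 1.90e-14). Kdm2b (ENSMUSG00000029475, chr5:122870665-122989823), an H3K36 demethylase that also brings a Polycomb complex to CpG islands, was the member that rose, from 37.0, 42.1 and 39.01 CPM in naive to 140, 137 and 136 in YFPpos SGC0649 libraries (log2 fold change 1.80 ± 0.06, SE, adjusted p = 3.18e-14). Its paralog Kdm2a fell from 307 CPM ± 10.7 to 215 ± 5.97 (-0.51 ± 0.05).

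Kdm6b, the H3K27 demethylase, fell from 169 CPM ± 9.88 to 79.0 ± 14.1 (log2 fold change -1.09 ± 0.11, SE, adjusted p = 4.08e-08). Kdm3b, an H3K9 demethylase, fell from 249 CPM ± 1.30 to 123 ± 3.50 (-1.01 ± 0.07, adjusted p = 2.40e-10), and Kdm5a, an H3K4 demethylase, from 284 CPM ± 6.16 to 144 ± 6.94 (-0.98 ± 0.05). The H3K9 and H3K36 demethylases Kdm4b, Kdm4c and Kdm4a fell by 0.75, 0.69 and 0.39 on the log2 scale, from 99.8, 70.9 and 139 CPM in naive cells. Phf8, an X-linked demethylase of H3K9 and H4K20, fell by 0.55 from 102 CPM. Kdm1a, Kdm5b and Kdm5c did not pass the threshold, and their intervals ran from -0.04 to 0.17, from -0.31 to -0.000313 and from -0.04 to 0.19. Kdm1a removes H3K4 mono- and dimethylation, and Kdm5b and the X-linked Kdm5c belong to the H3K4 demethylase family of Kdm5a.

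**Figure D1:**
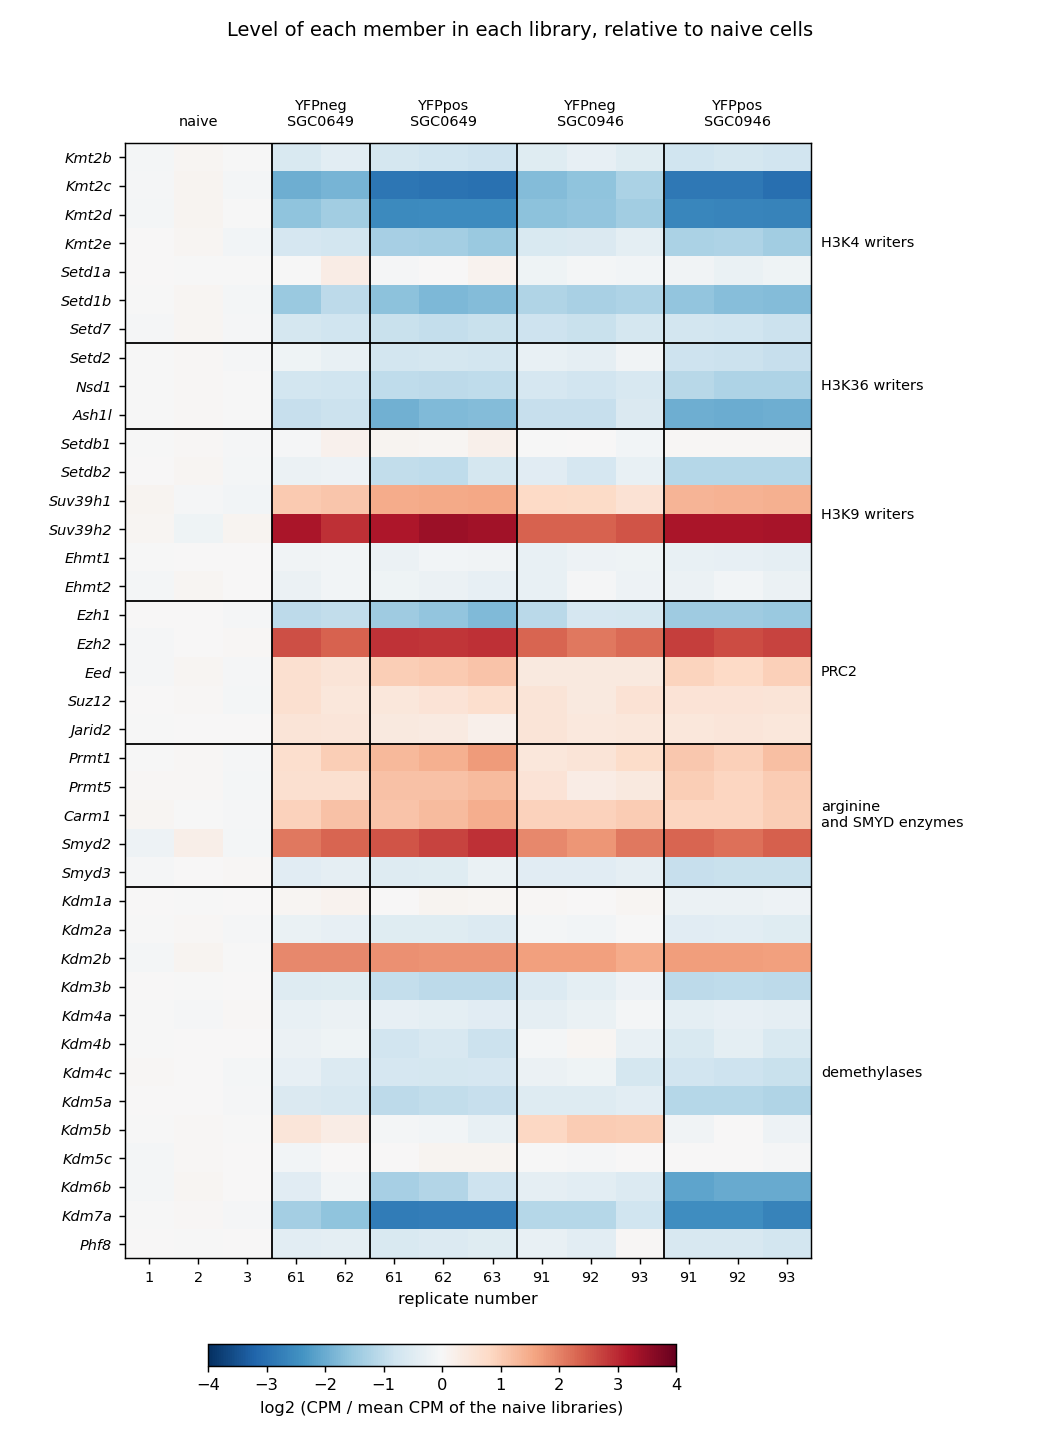
Level of each of the 39 members (lines, grouped by role) in each of the 14 libraries (columns), as log2 of the library's CPM over the mean CPM of the naive libraries, with red for higher and blue for lower. Ezh2, Suv39h2, Smyd2 and Kdm2b are red in every cultured library, and Kmt2c, Kmt2d and Kdm7a are blue, most deeply in the YFPpos columns.

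Ranked by level per kilobase of exon, the members changed order. In naive cells the highest were Kmt2d at 82.4 CPM per kilobase, Kmt2c at 48.0 and Suz12 at 44.0. In YFPpos SGC0649 cells they were Prmt1 at 73.0, Suz12 at 64.6 and Eed at 57.3, and Kmt2d and Kmt2c stood at 14.3 and 6.25. Suv39h2 was lowest in naive cells, at 0.480, and Smyd3 in YFPpos SGC0649 cells, at 1.83.

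Several properties of the libraries moved with these differences. Summed RNA of 8 cycling cell markers was 223 to 242 CPM in naive libraries, 3582 to 3820 in YFPneg SGC0649, 4900 to 4988 in YFPpos SGC0649, 3081 to 3174 in YFPneg SGC0946 and 4597 to 4674 in YFPpos SGC0946. Summed RNA of 5 naive T cell markers was 4815 to 5138 CPM in naive libraries, 2921 to 3319 in YFPneg SGC0649 and 1673 to 2177 in YFPpos SGC0649. Both lists thus placed YFPneg cells between naive and YFPpos cells. Their part in the differences of the members was not tested.

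Transcript length also moved with the result. Among members with more than 10 kb of exon, 12 of 14 were lower and 1 was higher in YFPpos SGC0649 than in naive cells, with a median log2 fold change of -1.02, where 54.9% of all genes of that length were lower. Among those under 5 kb, 7 of 9 were higher, with a median of 1.201, where 47.7% of all genes of that length were higher. Over all genes of the same length classes the medians were -0.39 in 1158 genes and 0.28 in 7067 genes. Kmt2c, Kmt2d, Nsd1 and Ash1l are among the long members, and Smyd2, Prmt1, Eed and Suz12 among the short ones. The part of length or RNA integrity in the result was not tested.

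The Y-linked genes Kdm5d, Uty, Ddx3y and Eif2s3y, of which Kdm5d and Uty belong to demethylase families, summed to 645 to 719 CPM in naive and 246 to 426 CPM in cultured libraries. Kdm5c, the X-linked counterpart of Kdm5d, was at 198 to 217 CPM in all 5 groups.

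The same naive libraries served as controls for YFPneg SGC0649 cells, so both comparisons share them. In YFPneg SGC0649 cells 12 members were higher than in naive cells, against 36.4% of all genes, and 19 were lower, against 32.6%. By at least 2-fold, 6 were higher, against 18.9% of all genes, and 5 lower, against 11.7%. The median log2 fold change was -0.22 over the members and 0.03 over all genes. Suv39h2 was at 3.11 ± 0.16 (SE), Ezh2 at 2.47 ± 0.08, Smyd2 at 2.22 ± 0.14, Kdm2b at 1.92 ± 0.07, Suv39h1 at 1.09 ± 0.08 and Carm1 at 1.06 ± 0.09, with adjusted p between 1.43e-14 and 2.19e-08.

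On the lower side, Kmt2c was at -1.90 ± 0.11 (SE), Kmt2d at -1.50 ± 0.08, Kdm7a at -1.49 ± 0.10, Setd1b at -1.26 ± 0.10, Ezh1 at -1.004 ± 0.11 and Ash1l at -0.90 ± 0.09, with adjusted p between 5.90e-11 and 4.31e-07. Setd7 was at -0.75 ± 0.07 (adjusted p = 2.71e-08). Kdm5b rose here, from 132 CPM ± 2.92 (SD, n = 3) to 173 ± 16.1 (SD, n = 2), a log2 fold change of 0.39 ± 0.08 (SE, adjusted p = 0.000371). Kdm6b was at 139 CPM ± 23.0 (SD, n = 2), a log2 fold change of -0.28 ± 0.12 with an adjusted p of 0.0449. The YFPneg SGC0649 values of Kdm6b, 123 and 155 CPM, nearly reached those of naive cells, 158, 178 and 170 CPM, and without library 61 the adjusted p was 0.469. That fit leaves 1 YFPneg SGC0649 library and assumes that it varies like the other groups.

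**Figure D2:**
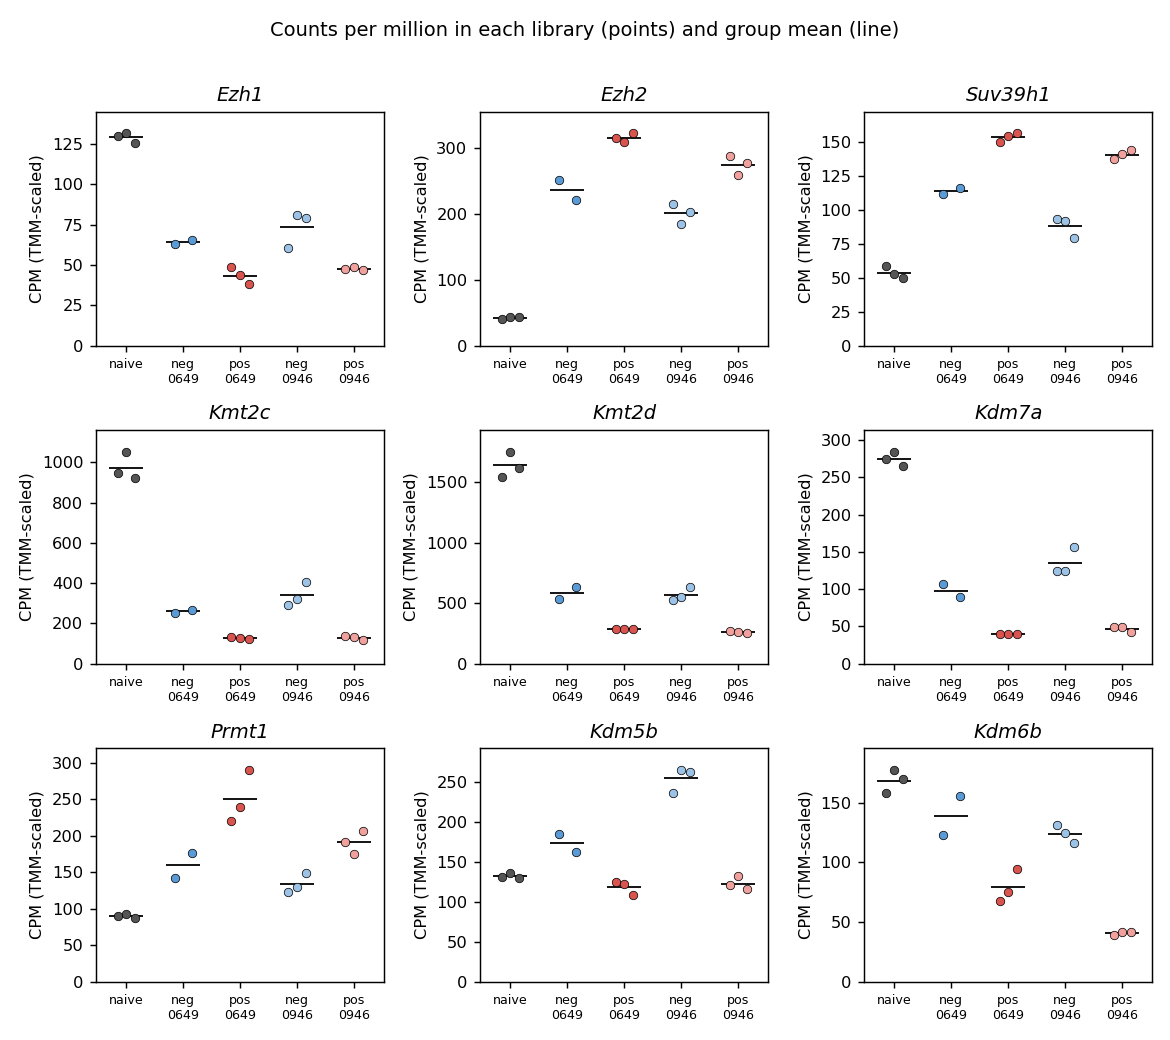
CPM (TMM-scaled, linear axes from 0) of 9 members in each library, with points for libraries and lines for group means, in the order naive, YFPneg SGC0649, YFPpos SGC0649, YFPneg SGC0946 and YFPpos SGC0946. Ezh1 and Ezh2 move in opposite directions, Kmt2c, Kmt2d and Kdm7a step down from naive to YFPneg to YFPpos, Kdm5b is highest in YFPneg SGC0946 cells and Kdm6b lowest in YFPpos SGC0946 cells.

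A second question was how reporter-positive cells differ from reporter-negative cells cultured with the same compound. In YFPpos cells, RNA of 5 to 6 of the 7 H3K4 writers, of all H3K36 writers and of most demethylases was lower than in YFPneg cells, and RNA of Ezh2, Eed, Suv39h1, Prmt1, Prmt5 and Smyd2 was higher, under either compound. With SGC0649, 7 members were higher, against 23.9% of all genes, and 19 were lower, against 21.3%. No member was higher by at least 2-fold by the edgeR test, where 5.06% of all genes were, and 3 were lower, against 5.01%. With SGC0946, 7 members were higher, against 26.9% of all genes, and 21 lower, against 27.8%. By at least 2-fold no member was higher, where 7.68% of all genes were, and 6 were lower, against 6.03%. The median log2 fold change of the members was -0.17 with SGC0649 and -0.33 with SGC0946, and that of all genes 0.04 and 0.01.

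Kdm7a had the lowest ratio with SGC0649, a log2 fold change of -1.30 ± 0.10 (SE, adjusted p = 2.62e-08), and was at -1.52 ± 0.09 with SGC0946 (adjusted p = 5.21e-10). Kmt2c was at -1.04 ± 0.11 and -1.39 ± 0.10, Kmt2d at -1.03 ± 0.08 and -1.12 ± 0.07, and Ash1l at -0.91 ± 0.09 and -1.16 ± 0.08 with SGC0649 and SGC0946, each with adjusted p at or below 7.17e-07. Kmt2e was at -0.67 ± 0.08 and -0.78 ± 0.07, and Setdb2 at -0.68 ± 0.11 and -0.67 ± 0.10. These 6 genes were lower in each YFPpos library than in each YFPneg library of the same compound.

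Kdm6b was the member whose ratio was lowest with SGC0946, at -1.60 ± 0.11 (SE, adjusted p = 3.21e-09), beside -0.82 ± 0.12 with SGC0649 (adjusted p = 2.81e-05). Kdm5b was at -1.05 ± 0.07 with SGC0946 (adjusted p = 4.02e-09) and -0.55 ± 0.08 with SGC0649 (adjusted p = 3.89e-05). Kdm1a, Smyd3, Kdm4c and Phf8 were lower in YFPpos cells past the threshold with SGC0946 but not with SGC0649. The difference between compounds for these 4 genes did not pass the threshold (adjusted p from 0.169 for Kdm1a to 0.566 for Kdm4c).

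On the higher side with SGC0649, Prmt1 was at 0.65 ± 0.12 (SE), Prmt5 at 0.56 ± 0.07, Smyd2 at 0.51 ± 0.13, Eed at 0.48 ± 0.07, Suv39h1 at 0.43 ± 0.08 and Ezh2 at 0.42 ± 0.07, with adjusted p between 1.27e-05 and 0.00409. With SGC0946 Suv39h2 led at 0.87 ± 0.12 (adjusted p = 1.12e-05), followed by Suv39h1 at 0.67 ± 0.07, Prmt5 at 0.54 ± 0.07, Prmt1 at 0.51 ± 0.10, Eed at 0.49 ± 0.06 and Ezh2 at 0.45 ± 0.07. Suv39h2 was at 0.23 ± 0.13 with SGC0649 (adjusted p = 0.158). Suz12, a core gene of PRC2, was at 0.00 and 0.05, with intervals from -0.15 to 0.16 and from -0.09 to 0.19.

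**Figure D3:**
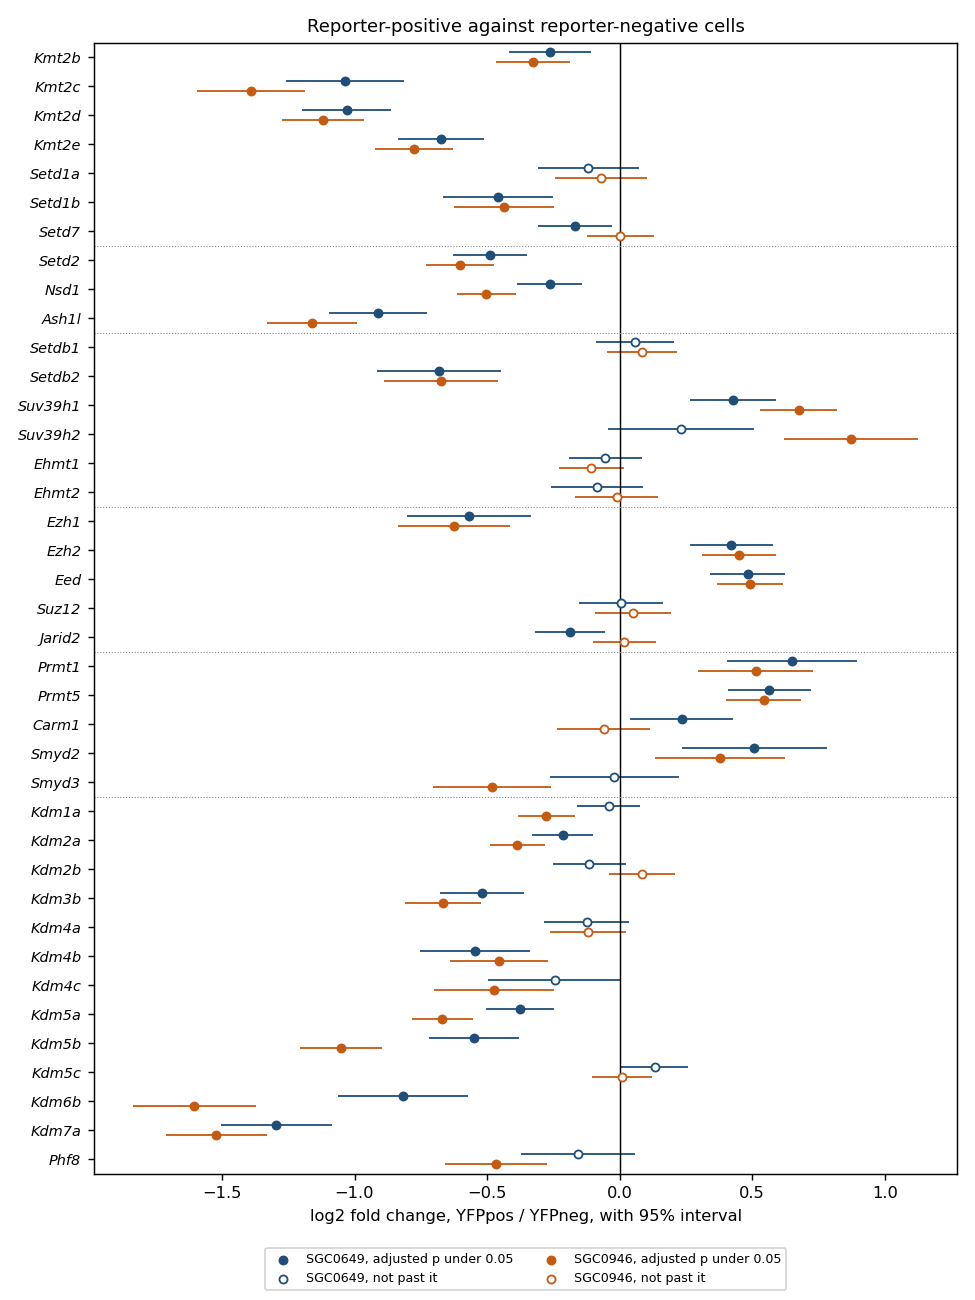
Log2 fold change of YFPpos over YFPneg cells for each of the 39 members, with 95% intervals, for SGC0649 (blue) and SGC0946 (orange), filled points having an adjusted p under 0.05. Kmt2c, Kmt2d, Ash1l, Kdm6b and Kdm7a lie farthest to the left, and Kdm5b and Kdm6b lie farther left with SGC0946 than with SGC0649.

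The cycling markers were higher in YFPpos cells for 7 of 8 genes with SGC0649, against 23.9% of all genes. With SGC0946 they were higher for 8 of 8, against 26.9% of all genes. Among members over 10 kb, 13 of 14 were lower with SGC0649 and 12 of 14 with SGC0946, where 37.8% and 50.9% of all genes of that length were lower, and the medians of all genes in that class were -0.14 and -0.25. Unmapped reads differed between the sorts as given above, except in YFPpos SGC0946 library 92, whose share was that of the YFPneg libraries. Library 92 had Kmt2d at 265 CPM and Kdm6b at 41.4 CPM, between or beside the other YFPpos SGC0946 values. Of the 28 calls with SGC0946, 27 held in each alternative fit, leaving out library 92 included. The exception was Smyd2, which lost its call without YFPneg SGC0946 library 92 (adjusted p = 0.0520).

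The next question was how the other methylation enzymes stood with the DOT1L inhibitor, measured against its inactive control compound at the same dose and time in each sort. Among YFPpos cells, 11 members were lower with SGC0946 than with SGC0649, against 15.7% of all genes, and 1 was higher, against 12.1%. This split moved with the scaling, to 8 lower and 4 higher by DESeq2 and to 7 lower and 3 higher with its size factors in edgeR, and that of all genes turned from 1934 lower and 1490 higher to 1388 lower and 1702 higher with those size factors. It was 7 lower and 3 higher with no filter on low counts, and 7 lower and 4 higher at a mean CPM of at least 1. All 5 arginine and SMYD enzymes were among those lower. The median log2 fold change of the members was -0.12 and that of all genes -0.04, and only Kdm6b came near a 2-fold difference.

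Kdm6b (ENSMUSG00000018476, chr11:69398508-69413675) was at 67.3, 74.9 and 94.7 CPM in YFPpos SGC0649 and at 39.3, 41.4 and 41.8 CPM in YFPpos SGC0946 libraries. The lowest SGC0649 library was well above the highest SGC0946 library. The log2 fold change was -0.95 ± 0.11 (SE, adjusted p = 1.53e-05), and the adjusted p was 0.000772 or less in each alternative fit. Among YFPneg cells Kdm6b was at 123 and 155 CPM with SGC0649 and at 132, 125 and 116 with SGC0946, which overlap, with a log2 fold change of -0.16 and an interval from -0.41 to 0.08. The difference between the sorts was -0.79 ± 0.16 (SE, adjusted p = 0.0211, edgeR interaction test), a call lost in 4 of 18 alternative fits, with adjusted p up to 0.119.

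Smyd3 was at 15.7, 16.0 and 18.7 CPM in YFPpos SGC0649 and at 12.003, 12.2 and 12.03 in YFPpos SGC0946 libraries, a log2 fold change of -0.48 ± 0.10 (SE, adjusted p = 0.00304). Carm1 was at 98.5, 107 and 122 CPM with SGC0649 and at 80.0, 79.9 and 87.3 with SGC0946 (-0.40 ± 0.08, adjusted p = 0.00180). Kdm1a was at 126, 134 and 132 CPM with SGC0649 and at 105, 107 and 109 with SGC0946 (-0.29 ± 0.05, adjusted p = 0.000617). In each of these 3 genes all SGC0649 libraries lay above all SGC0946 libraries. With Kdm6b, they were the 4 of 12 members whose call held in each alternative fit.

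The remaining calls in YFPpos cells were smaller or less stable. Smyd2 was at -0.41 ± 0.11 (SE, adjusted p = 0.0121), Prmt1 at -0.39 ± 0.10 (0.00933) and Prmt5 at -0.25 ± 0.07 (0.0103). These 3 lost their call without YFPpos SGC0649 library 63, with adjusted p from 0.0577 to 0.0875, and without YFPpos SGC0946 library 92, with adjusted p from 0.0566 to 0.0691. Ezh2 was at -0.20 ± 0.07 (adjusted p = 0.0293), Eed at -0.18 ± 0.06 (0.0340), Nsd1 and Kdm5a each at -0.17 ± 0.05 (0.0237 and 0.0249) and Jarid2 at 0.16 ± 0.06 (0.0393). Of 12 alternative fits, 9 ended the call of Ezh2, 9 that of Eed, 8 that of Nsd1, 10 that of Kdm5a and 5 that of Jarid2. With DESeq2's size factors in edgeR alone the adjusted p was 0.0846 for Ezh2, 0.110 for Eed, 0.0952 for Nsd1 and 0.0910 for Kdm5a. Kdm7a at 0.24 ± 0.09 (adjusted p = 0.0644) and Kdm4b at 0.22 ± 0.09 (0.0771) were not called, but passed the threshold as higher in 6 and 5 of the 12 fits, with adjusted p of 0.0338 and 0.0435 under those size factors. Without library 63 the count of members called was 4 and without library 92 it was also 4, against 12 with all libraries.

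Of the H3K4 writers, none passed the edgeR threshold in YFPpos cells and 1 had an unadjusted p under 0.05. Setd7 passed as higher by DESeq2 (0.16, adjusted p = 0.0345), and Setd1a as lower by limma-voom (-0.22, adjusted p = 0.0372). Setd7 also passed at a mean CPM of at least 1 and with only the groups compared, and Setd1a without YFPpos SGC0649 library 61. The edgeR intervals of the H3K4 writers together spanned -0.39 to 0.24. Kmt2c and Kmt2d were at 0.03 ± 0.10 and -0.12 ± 0.07. For all 27 members not called, the intervals lay between -0.45 and 0.43. Dot1l itself was lower with SGC0946 in YFPpos cells, at 177 CPM ± 6.67 against 221 ± 8.29 (SD, n = 3 each), a log2 fold change of -0.32 ± 0.07 (SE, adjusted p = 0.00200).

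Among YFPneg cells, 4 members were higher with SGC0946, against 4.99% of all genes, and 3 were lower, against 3.64%. By DESeq2 the split was 4 higher and 6 lower. Kdm5b (ENSMUSG00000042207, chr1:134560171-134635285) was at 185 and 162 CPM with SGC0649 and at 235, 265 and 262 with SGC0946, without overlap. Its log2 fold change was 0.55 ± 0.08 (SE, adjusted p = 0.00129) and held in each alternative fit, with adjusted p of 0.0289 or less. In YFPpos cells it was at 125, 122 and 109 CPM with SGC0649 and at 120, 132 and 115 with SGC0946, which overlap. The difference between the sorts was -0.50 ± 0.11 (SE, adjusted p = 0.0317), a call lost in 8 of 18 alternative fits, with adjusted p up to 0.130.

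The other higher members were Kdm7a at 0.46 ± 0.10 (SE, adjusted p = 0.0105), Kmt2c at 0.38 ± 0.11 (0.0370) and Kdm2a at 0.23 ± 0.06 (0.0178). Among YFPneg libraries, Kmt2c and Kdm7a were highest in SGC0946 library 93, the library with the smallest total, and without it the adjusted p of Kmt2c was 0.0661. Both calls also depended on the SGC0649 libraries. Kmt2c was no longer called without SGC0649 library 61 or 62, with log2 fold changes of 0.33 and 0.43. Kdm7a was no longer called without library 62, with a log2 fold change of 0.34. The lower members were Suv39h2 at -0.70 ± 0.13 (adjusted p = 0.00557), Suv39h1 at -0.37 ± 0.08 (0.00848) and Kdm2b at -0.33 ± 0.07 (0.00702). For Suv39h1, Suv39h2 and Kdm2b each SGC0946 library was below each SGC0649 library. In a fit of these 5 libraries alone, Kdm5b was the single member called. Without YFPneg SGC0649 library 62, which leaves 1 library in that group and assumes that it varies like the others, 3 members were called.

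Of the 8 cycling markers, 4 were lower with SGC0946 in YFPneg cells, against 3.64% of all genes, and 1 in YFPpos cells, against 15.7%. The part of these markers in the lower Suv39h1 and Suv39h2 was not tested. No PRC2 subunit passed the edgeR threshold in YFPneg cells, 2 had an unadjusted p under 0.05, 1 passed by DESeq2 and none by limma-voom. Ezh2 was at -0.23 with an interval from -0.39 to -0.07, close to its value in YFPpos cells. For the 32 members not called, intervals lay between -0.56 and 0.42.

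Whether SGC0946 acted differently in the sorts was tested by the interaction. Kdm6b and Kdm5b were lower, against 0.891% of all genes, and no member was higher by edgeR, where 0.259% of all genes were. Of the 39 members 14 had an unadjusted p under 0.05, and DESeq2 called 3 and limma-voom 2. The third by DESeq2 was Suv39h2, which was higher, at 0.64 ± 0.18 (SE, adjusted p = 0.0959) by edgeR and 0.68 (adjusted p = 0.0238) by DESeq2. Over all genes, 110 were lower and 32 higher by edgeR, 80 and 39 with DESeq2's size factors, and 177 and 120 by DESeq2. Kdm6b and Kdm5b fell further from YFPneg to YFPpos cells with SGC0946 than with SGC0649, Kdm6b through a lower YFPpos level and Kdm5b through a higher YFPneg level.

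**Figure D4:**
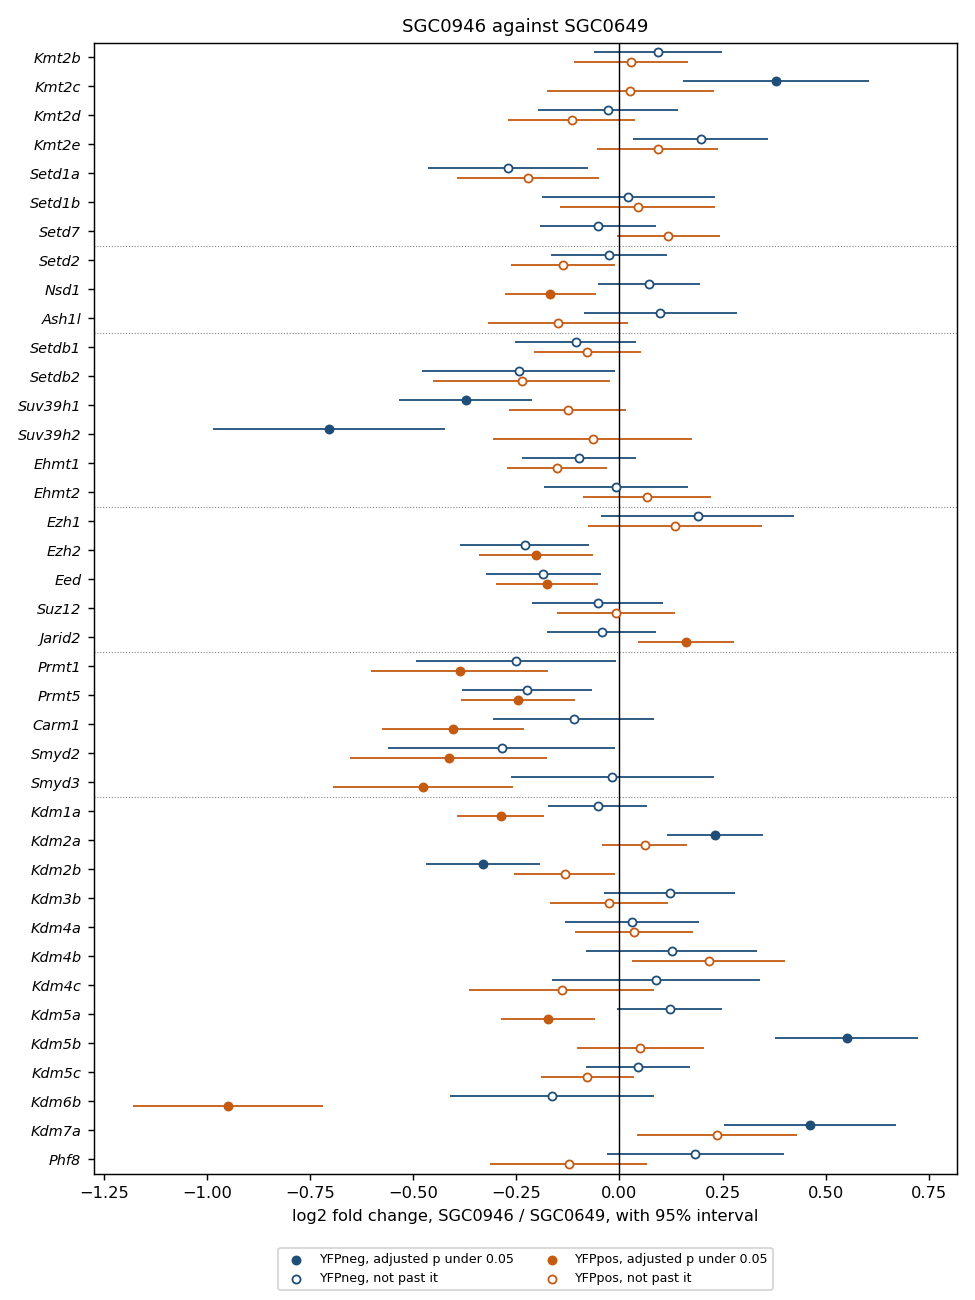
Log2 fold change of SGC0946 over SGC0649 for each of the 39 members, with 95% intervals, in YFPneg (blue) and YFPpos (orange) cells, filled points having an adjusted p under 0.05. Kdm6b in YFPpos cells stands at -0.95 and Suv39h2 and Kdm5b in YFPneg cells at -0.70 and 0.55, while most other values lie within 0.5 of 0.

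Of 66 further histone methylation genes listed for comparison, 65 were in the table and 64 were tested. In YFPpos SGC0649 against naive cells 26 of these rose, against 42.6% of all genes, and 28 fell, against 37.3%. In YFPneg SGC0649 against naive cells 21 rose, against 36.4% of all genes, and 26 fell, against 32.6%. The H3K4 writer Kmt2a fell from 1289 CPM ± 74.1 in naive to 362 ± 5.77 in YFPpos SGC0649 cells (SD, n = 3 each), a log2 fold change of -1.83 ± 0.07 (SE, adjusted p = 1.38e-13), as Kmt2c and Kmt2d did. The H3K36 dimethylase Whsc1 rose instead, from 35.6 CPM ± 3.40 to 384 ± 7.80 (3.43 ± 0.06, adjusted p = 1.12e-17), opposite to Nsd1 and Ash1l. Setd8, which monomethylates H4K20 in cycling cells, rose from 61.1 CPM ± 5.26 to 200 ± 18.6 (1.71 ± 0.09).

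Between YFPpos and YFPneg cells with SGC0649, 17 of the 64 further genes were higher, against 23.9% of all genes, and 20 lower, against 21.3%. With SGC0946, 18 were higher, against 26.9% of all genes, and 23 lower, against 27.8%. Kmt2a was at -1.18 ± 0.08 (SE) with SGC0649 and -1.24 ± 0.07 with SGC0946. With SGC0946 against SGC0649 in YFPpos cells, 3 were higher, against 12.1% of all genes, and 16 lower, against 15.7%. In YFPneg cells 0 were higher, against 4.99% of all genes, and 4 were lower, against 3.64%. The arginine methyltransferase Prmt3 was lower in YFPpos cells at -0.51 ± 0.10 (adjusted p = 0.00119) and in YFPneg cells at -0.36 ± 0.11 (adjusted p = 0.0499). Of the other arginine methyltransferases listed, Prmt7 was lower in YFPpos cells at -0.48 ± 0.10 (adjusted p = 0.00306), and Prmt2, Prmt6 and Prmt10 did not pass the threshold, at 0.12 ± 0.11, -0.19 ± 0.12 and 0.03 ± 0.10. The members Prmt1, Prmt5 and Carm1 were lower in YFPpos cells and not called by edgeR in YFPneg cells. By DESeq2, Prmt5 was lower in YFPneg cells too, at -0.22 (adjusted p = 0.0460). Of the 5 arginine and SMYD enzymes, 3 had an unadjusted p under 0.05 in YFPneg cells (edgeR), with a median of -0.22 over the 5. In the interaction 0 of the 5 passed the threshold.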

How the data were processed

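The authors deposited a table of raw counts (14 libraries), which featureCounts made on build GRCm38 per the submitters' processing notes, and a summary of reads per assignment category. The table is labelled as reverse-strand and protein-coding. No source used here names the annotation release. The analysis used edgeR 4.0.16 in R 4.3.3: filterByExpr by group (12343 of 22048 genes kept), TMM scaling, and 1 quasi-likelihood model of all 14 libraries with a coefficient for each group. The 7 comparisons were tested with the F test and adjusted by Benjamini-Hochberg over all genes tested, at 0.05. Standard errors are the absolute log2 fold change over the square root of F, and levels are TMM-scaled CPM. Exon length is the union of exons in GENCODE M21. The fits were tested on simulated data. Alternatives were DESeq2 1.42.0, its size factors, no filter, a mean CPM of at least 1, limma 3.58.1 (voom), the groups compared alone, a replicate block, and leaving out each library.

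Each member was to be named, with full statistics for up to 6 higher and 6 lower members per comparison, for each member called between compounds, and for Ezh1, Ezh2, Suv39h1, Suv39h2, Kdm6b and Setd7 against naive cells. The members, the gene lists and this rule were chosen with earlier results of these data known. The split by transcript length was added after the data were seen. Of the 14 library totals the smallest was 14486577 counts, and the rarest member still had 4471 reads in all, with a lowest count of 30 in 1 library, so counting error is largest for Suv39h2 in naive cells.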

Additional observations from a re-analysis of the deposited data

Results flagged for a closer look

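The SGC0946 effect differed between the sorts for 2 members by the edgeR interaction test. For Kdm6b the log2 effect in YFPpos minus that in YFPneg cells was -0.79 (adjusted p = 0.0211), with the SGC0946 level below that of SGC0649 in 3 of 3 YFPpos libraries. The call was lost in the fit of the 4 cultured groups alone (adjusted p = 0.0866), without YFPneg SGC0649 library 61 (0.119) and without YFPpos SGC0946 library 91 (0.0675) or 93 (0.0510). For Kdm5b the difference was -0.50 (adjusted p = 0.0317), with 3 of 3 YFPneg SGC0946 libraries above both SGC0649 libraries. Its call was lost in 8 alternative fits, with adjusted p up to 0.130. Over all alternatives the value stayed between -0.97 and -0.61 for Kdm6b and between -0.60 and -0.41 for Kdm5b. Suv39h2 had a larger value than Kdm5b in the other direction, 0.64 (adjusted p = 0.0959), and passed the threshold by DESeq2 (0.0238) and without YFPneg SGC0946 library 93 (0.0476), while its adjusted p reached 0.309 elsewhere.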

How the results depend on the processing

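No member reversed its direction in any alternative where it was called. The calls of 33 of 34 members in YFPpos SGC0649 and 27 of 31 in YFPneg SGC0649 against naive cells, and of 20 of 26 with SGC0649 and 27 of 28 with SGC0946 between the sorts, held in every alternative run. Between compounds this held for 4 of 12 members in YFPpos and 1 of 7 in YFPneg cells, and in the interaction for 0 of 2 (edgeR, 14 members with an unadjusted p under 0.05).

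Leaving out each library moved the YFPpos compound comparison from 12 members and 3424 genes to between 4 and 13 members and between 1886 and 3449 genes. The YFPneg one moved from 7 members and 1065 genes to between 3 and 10 members and between 335 and 1520 genes, with the lowest values without YFPneg SGC0649 library 62. It gave 1600 genes by DESeq2, and 1 member and 199 genes with only the groups compared. The interaction moved from 2 members and 142 genes to between 0 and 3 members and between 61 and 241 genes. It gave 297 genes by DESeq2, 1 member with DESeq2's size factors, 1 member at a mean CPM of at least 1, and 0 members (12 with an unadjusted p under 0.05) and 56 genes with only the groups compared. The causes were not tested.

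The replicate block called 23 members between sorts with SGC0649, 28 with SGC0946 and 2 in the interaction, against 26, 28 and 2 without it. Deviations of same-numbered libraries correlated at 0.256, 0.0725, 0.133, 0.146 and -0.00677 over 8986 genes. Those of differently numbered libraries ranged from -0.256 to 0.202. With 2 YFPneg SGC0649 libraries, the deviations in that group mirror each other. These values therefore do not decide whether same-numbered libraries were paired.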
